A study of Mus musculus with 6 samples.

Results

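Chromatin accessibility was examined at 41 genes that encode chromatin regulators, in natural killer (NK) cells from Rroid-deficient and wildtype mice. The genes cover Polycomb proteins, histone demethylases, enzymes that write and remove DNA methylation, subunits of the BAF remodeller, AT-rich DNA binding proteins, CHD remodellers, histone deacetylases with a corepressor, acetyltransferases, CTCF with cohesin, and an H3K36 methyltransferase. A peak belonged to a gene when the annotation named that gene as the nearest and placed the peak at most 100 kb from a transcription start site of that gene. Some genes have several annotated starts, and each distance is from the one that the annotation chose for that peak. By this rule 38 of the 41 genes had a peak, and Hdac3, Hdac5 and Kdm5a had none. The 38 genes held 170 of the 51775 peaks of the series, with a median of 3 peaks per gene and at most 12, at Arid1b. Another 48 peaks that the annotation gave to 7 of these genes lay farther away and were not used. A nearest gene is given by distance alone and does not show which gene a peak regulates.

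The groups were Rroid-deficient NK cells (3 libraries, numbered 4, 5 and 6) and wildtype NK cells (3 libraries, numbered 1, 2 and 3), both from spleens of C57BL6 mice. Rroid is a locus close to Id2 that makes a long noncoding RNA, and NK cells need Id2 to develop. How Rroid was removed is not described in the labels used here. Cells without CD3 and CD5 that carried NK1.1 and NKp46 were sorted, and 50000 cells of each genotype were assayed by ATAC-seq, which reads open chromatin through the cuts of a transposase. The transposition was done in triplicate per the labels, which do not say whether the 3 libraries stand for different animals, and every p-value therefore rests on library-to-library spread that may be technical. Reads in peaks numbered 27572006 to 41167610 in Rroid-deficient libraries and 39847736 to 47939665 in wildtype libraries, and libraries 4 and 6 were the shallowest. Of 9 NK cell marker genes, 8 had a promoter peak, with 5 called lower and 0 higher. Their summed value was 17909 to 21756 normalized reads in Rroid-deficient libraries and 22863 to 26200 in wildtype libraries. Of all peaks within 1 kb of a start site, 8.73% were lower and 10.4% higher. Within 100 kb, 29 of 64 NK marker peaks were lower and 5 higher, beside 11.6% and 13.6% of all peaks within 100 kb. Of 7 T cell marker genes, 5 had no promoter peak, and the others, Cd3g and Cd5, were both called higher. They summed to 432 to 516 in Rroid-deficient libraries and 96.7 to 174 in wildtype libraries. Within 100 kb, 3 of 10 T cell marker peaks were higher and 1 lower. The single B cell marker and the single myeloid marker with a promoter peak were not called. The part of these marker differences in the results below was not tested.

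Chromatin regulators set how tightly DNA is packed and which stretches factors can reach. Polycomb complexes place the repressive mark H3K27me3 and compact chromatin, demethylases and deacetylases remove marks, acetyltransferases add activating ones, and BAF and CHD enzymes move nucleosomes with energy from ATP. In lymphocytes these proteins are known for fixing cell identity during development and for shaping the response to activation.

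The promoters of the Polycomb repressive complex 2 (PRC2) genes are shown because their peaks were called in different directions in the same complex: the Ezh1 promoter peak was higher in Rroid-deficient cells, the Eed promoter peak was lower, and the Ezh2 and Suz12 promoter peaks were not called. Each line gives the 250 bases before the RefSeq start on the gene's strand, build GRCm38.p6, which is not the mm9 build of the peaks. The windows are chr11:101226464-101226713 (minus strand) for Ezh1, chr7:89980977-89981226 (minus strand) for Eed, chr6:47595031-47595280 (minus strand) for Ezh2 and chr11:79992856-79993105 (plus strand) for Suz12. Capitals mark matches to CANCTG, the E-box that E proteins bind, or to TGTGGT, a RUNX motif.
Ezh1: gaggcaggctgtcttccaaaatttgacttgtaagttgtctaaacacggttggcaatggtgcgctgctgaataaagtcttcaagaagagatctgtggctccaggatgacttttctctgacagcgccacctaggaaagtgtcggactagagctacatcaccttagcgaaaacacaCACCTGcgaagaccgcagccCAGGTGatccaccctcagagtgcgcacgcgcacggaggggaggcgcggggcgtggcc
Eed: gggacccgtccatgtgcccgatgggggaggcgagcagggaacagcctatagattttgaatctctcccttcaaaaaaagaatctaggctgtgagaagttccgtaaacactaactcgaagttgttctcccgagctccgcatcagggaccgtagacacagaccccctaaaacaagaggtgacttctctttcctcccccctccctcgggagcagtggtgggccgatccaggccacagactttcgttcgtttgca
Ezh2: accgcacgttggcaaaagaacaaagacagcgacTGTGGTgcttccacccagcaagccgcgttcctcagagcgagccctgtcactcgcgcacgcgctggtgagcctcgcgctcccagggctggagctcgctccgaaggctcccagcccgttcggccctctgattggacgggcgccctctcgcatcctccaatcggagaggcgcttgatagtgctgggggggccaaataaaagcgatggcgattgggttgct
Suz12: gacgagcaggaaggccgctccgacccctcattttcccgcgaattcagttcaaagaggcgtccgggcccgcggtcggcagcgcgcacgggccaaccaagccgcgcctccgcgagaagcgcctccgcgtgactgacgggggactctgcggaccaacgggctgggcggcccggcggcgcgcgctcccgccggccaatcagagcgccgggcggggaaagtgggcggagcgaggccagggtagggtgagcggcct
Both strands were searched for the E-box CANCTG, the RUNX motif TGTGGT, the ETS motif GGAAGT and the AP-1 motif TGANTCA, and no matches overlapped. The Ezh1 window held 2 E-boxes and the Ezh2 window held 1 RUNX match, and the Eed and Suz12 windows held none of the 4 motifs. Of 32851 mouse promoters of the same length, 44.8% held an E-box, 14.0% the RUNX motif, 19.7% the ETS motif and 6.75% the AP-1 motif. Of the 23 chromatin regulators with a single promoter in the table, 5 held an E-box, 2 the RUNX motif and 0 the ETS or AP-1 motif. These matches are descriptions of letters and not binding sites. The Ezh1 and Eed windows held 14 and 12 CpG dinucleotides, against 23 in Ezh2 and 37 in Suz12, and the median was 23 over the 23 chromatin regulators and 6 over all promoters. In all, 33 of the 41 genes matched the promoter table.

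Of the 170 peaks at chromatin regulators, 23 were higher and 18 lower in Rroid-deficient cells than in wildtype cells, and 129 were not called. A peak was called at a limma p under 0.05 after Benjamini-Hochberg adjustment over all 51775 peaks, and fold changes are differences of log2(normalized reads + 1). The share called was 24.1%, beside 25.8% of all peaks, with 13.5% higher beside 13.8% and 10.6% lower beside 12.1%. The median log2 fold change was -0.00 over the 170 peaks and -0.01 over all peaks. At 66 of the 170 peaks the 3 values of one genotype did not overlap those of the other, which is 38.8% beside 40.1% of all peaks, and all 41 called peaks were among them. The chromatin regulators thus differed about as often, and as evenly in both directions, as the peaks of the series as a whole. In bulk cells a different value in every cell cannot be told apart from a different share of cells that are open at a peak.

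By gene, 10 regulators had only rising called peaks, 10 only falling ones, Arid5b and Hdac7 had both, and 16 had none called. The genes with none were Ezh2, Suz12, Kdm5b, Dnmt3b, Tet1, Smarca4, Smarcc1, Chd1, Hdac1, Hdac2, Ep300, Crebbp, Ctcf, Smc3, Rad21 and Setd2. Called peaks that changed 2-fold or more numbered 5 higher and 3 lower. The split by gene was not computed over all genes, nor the 2-fold counts over all called peaks. Neither is therefore shown to be particular to the regulators. The median called rise was 0.74 on the log2 scale, beside 0.85 over all called rises, and the median called fall was -0.53, beside -0.59. Leaving out Rroid-deficient library 4 left 23 higher and 9 lower, leaving out library 6 left 17 higher and 11 lower, and leaving out wildtype library 2 left 23 higher and 11 lower. The share of all peaks called was then 20.0%, 18.1% and 18.3%. Leaving out Rroid-deficient library 5 turned the balance, with 18 higher and 23 lower and 26.1% of all peaks called. Wildtype library 3 was the lowest of its group at 14 of the 23 rising peaks, and Rroid-deficient library 4 was the lowest of its group at 15 of the 18 falling peaks. At the 129 regulator peaks not called, wildtype library 3 was the lowest of its group at 55. Rroid-deficient library 4 was the lowest of its group at 58 of them. Of the 41 calls, 18 held in every one of the alternatives that tested them, 11 higher and 7 lower.

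**Figure D1:**
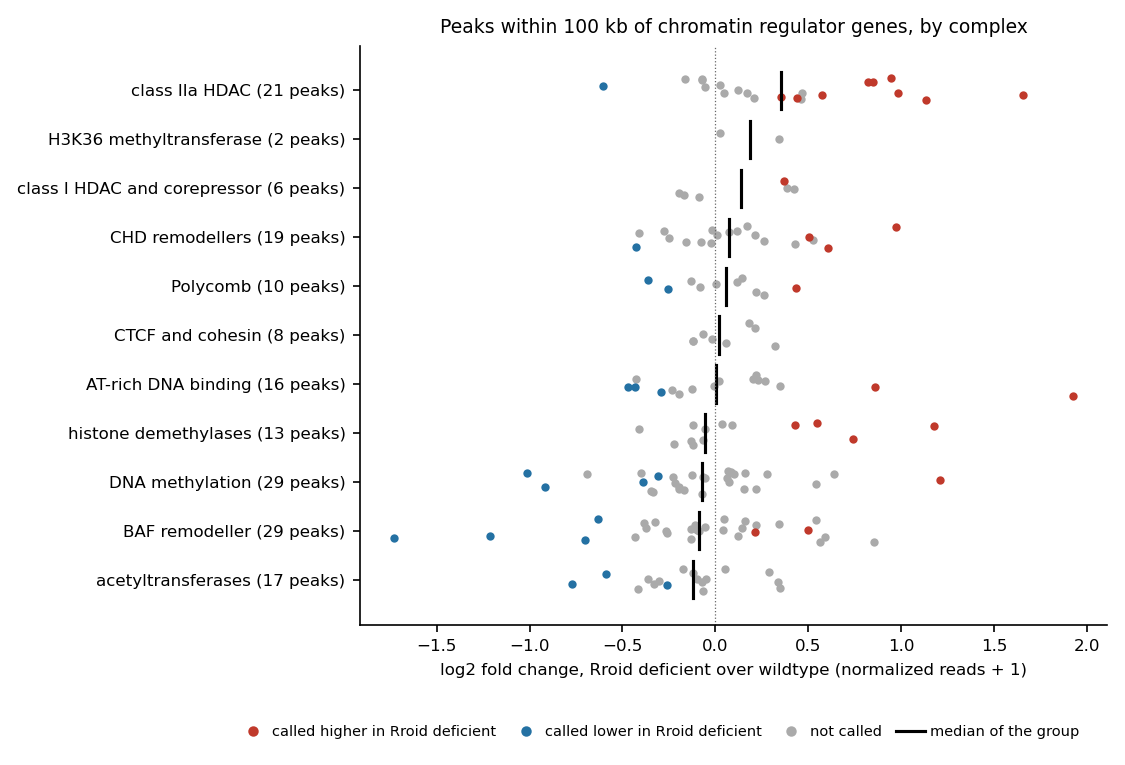
Log2 fold change of each peak within 100 kb of a chromatin regulator (x axis, Rroid deficient over wildtype, normalized reads + 1), with 1 row per complex and the median as a black bar. The medians run from -0.12 at the acetyltransferases to 0.35 at the class IIa deacetylases, and called peaks lie on both sides of 0 in most rows.

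The class IIa histone deacetylases (HDACs), which shuttle between nucleus and cytoplasm and repress targets of MEF2 factors, held 21 peaks, of which 9 were higher and 1 lower in Rroid-deficient cells. Hdac4 alone held 7 of the 9. The share called was 47.6% and the median log2 fold change 0.35, beside 25.8% and -0.01 over all peaks. Peaks of 1 gene share a chromosomal region and are not independent of each other.

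At Hdac4, 7 of 11 peaks were higher in Rroid-deficient cells, and the other 4 were not called. The called peaks lay 16.5 kb upstream of the start site and 44.6, 48.5, 61.6, 78.7, 88.8 and 96.6 kb downstream of it, the downstream ones in introns, and their log2 fold changes in that order were 0.99, 0.57, 0.82, 1.13, 0.44, 0.35 and 0.85. The intronic peak at 96.6 kb (chr1:93947435-93949397, mm9) held 613, 619.7 and 584 normalized reads in Rroid-deficient libraries 4, 5 and 6, against 313, 364 and 332 in wildtype libraries 1, 2 and 3, the order used throughout. The lowest Rroid-deficient value was well above the highest wildtype value, and the log2 fold change was 0.85 ± 0.12 (SE, limma adjusted p = 6.47e-05). The peak at 61.6 kb (chr1:93982621-93984039) held 225, 199 and 168 normalized reads in Rroid-deficient libraries, against 73.0, 109 and 87.9 in wildtype libraries. Its groups did not overlap either, with a log2 fold change of 1.13 ± 0.20 (SE, limma adjusted p = 0.000521). The peaks at 16.5 kb upstream and at 48.5, 61.6 and 96.6 kb kept their call under every alternative that tested them. The call at 88.8 kb was lost when Rroid-deficient library 5 or 6 or wildtype library 1 or 3 was left out. It was also lost when libraries 4 and 6 were left out together. That was the only alternative that removed the calls at 44.6 and 78.7 kb. The 3 tallest Hdac4 peaks were not called. The one 31.3 kb upstream held 8318 ± 388 normalized reads in Rroid-deficient cells and 9312 ± 405 in wildtype cells (SD, n = 3 each), a log2 fold change of -0.16, and the other two, at 68.2 and 83.9 kb, had 0.03 and 0.04. Summed over its 11 peaks, Hdac4 held 14479 ± 551 normalized reads in Rroid-deficient cells and 14291.5 ± 699.8 in wildtype cells (SD, n = 3 each), which was not called (limma adjusted p = 0.864).

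Hdac7, a class IIa deacetylase prominent in thymocytes and endothelium, had the called rise with the smallest adjusted p of all 170 peaks. The intronic peak chr15:97672473-97674212, 1.6 kb downstream of an annotated start, held 522, 525 and 473 normalized reads in Rroid-deficient libraries, against 150.5, 178 and 152 in wildtype libraries. All 3 Rroid-deficient libraries lay above all 3 wildtype libraries by a wide margin, and the log2 fold change was 1.66 ± 0.14 (SE, limma adjusted p = 2.89e-07). A second Hdac7 peak (chr15:97646795-97647692), 1.9 kb upstream of another annotated start and inside an intron, went the other way, with 557, 651 and 627 normalized reads in Rroid-deficient libraries, against 906, 1034 and 857 in wildtype libraries. That log2 fold change was -0.61 ± 0.11 (SE, limma adjusted p = 0.000801), and both Hdac7 calls held under every alternative. The Hdac7 peak 0.5 kb from yet another start and 5 others were not called.

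Hdac9, a class IIa member that is also an inhibitor of MEF2, had 1 of 2 peaks called. The intronic peak chr12:35591164-35592665, 9.9 kb downstream of a start, held 279.8, 213 and 245 normalized reads in Rroid-deficient libraries, against 147, 140.3 and 98.7 in wildtype libraries. Rroid-deficient library 5 was the lowest of its group and still above wildtype library 1, the highest of the wildtype group. The log2 fold change was 0.94 ± 0.19 (SE, limma adjusted p = 0.00133), and the call was lost when Rroid-deficient libraries 4 and 6 were both left out (adjusted p = 0.0863).

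**Figure D2:**
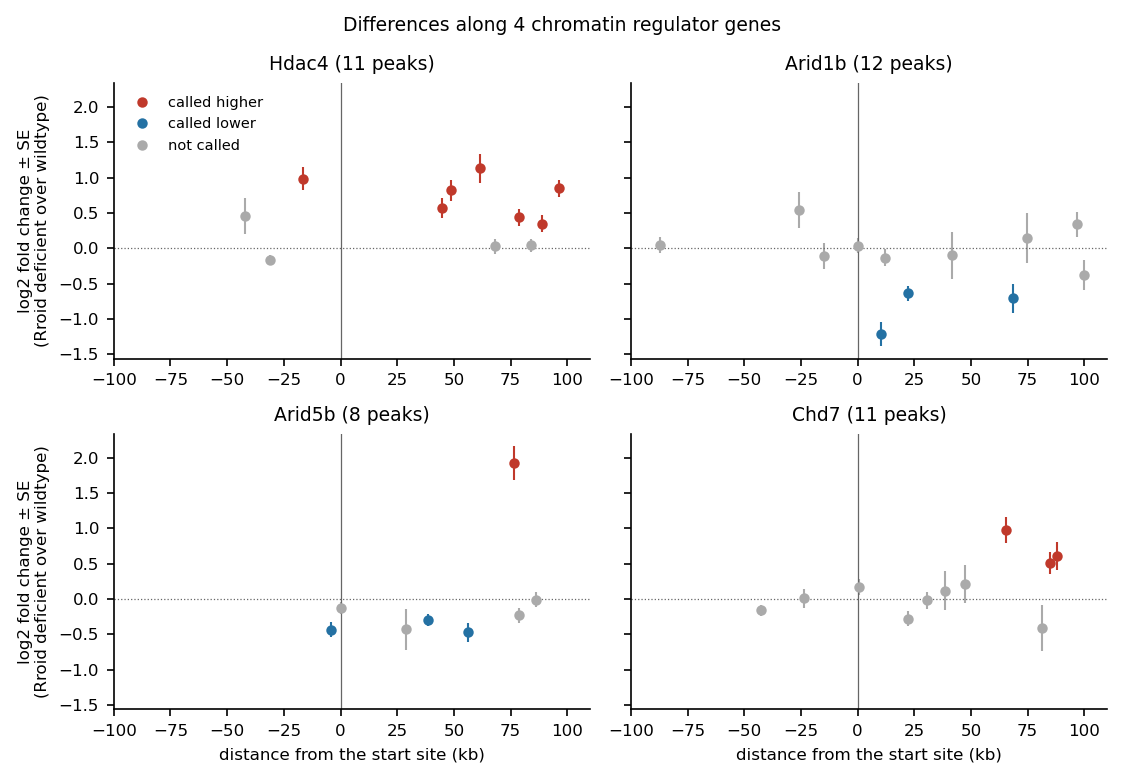
Log2 fold change ± SE (y axis, Rroid deficient over wildtype) against distance from the start site in kb (x axis) for the peaks of Hdac4, Arid1b, Arid5b and Chd7. At Hdac4 all 7 called peaks are higher, at Arid1b all 3 are lower, at Chd7 3 intronic peaks from 65.4 to 88.1 kb are higher, and at Arid5b 1 peak is higher and 3 are lower.

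The class I deacetylases Hdac1 and Hdac2, the catalytic subunits of several corepressor complexes, had 2 peaks each and none was called. The Hdac1 promoter peak (chr4:129219497-129220480) held 1818, 2055 and 1916 normalized reads in Rroid-deficient libraries, against 2166, 2219 and 2106 in wildtype libraries. Its groups did not overlap, but the log2 fold change of -0.17 ± 0.09 (SE, limma adjusted p = 0.171) missed the threshold. Ncor1, a corepressor scaffold that binds and activates Hdac3, was higher at its promoter (chr11:62269866-62272414), with 3154, 3949.6 and 3344 normalized reads in Rroid-deficient libraries, against 2834, 2864 and 2380.3 in wildtype libraries. The log2 fold change was 0.37 ± 0.10 (SE, limma adjusted p = 0.0108), and the call was lost without wildtype library 3, the lowest wildtype value (adjusted p = 0.0579).

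Among the histone demethylases, 4 of 13 peaks were higher and 0 lower in Rroid-deficient cells by limma, edgeR and DESeq2. That is 30.8% called, beside 25.8% of all peaks (13.8% higher and 12.1% lower). By limma, 1 was lower at an unadjusted p under 0.05. Kdm2b, a demethylase that brings a Polycomb complex to CpG islands, accounted for 3 of the 4 higher peaks. Their log2 fold changes were 0.55 at 0.2 kb from an internal start and 0.74 and 1.18 in introns 36.9 and 39.5 kb downstream of another start. The peak at 39.5 kb (chr5:123398282-123399715) held 1449, 1902 and 1609 normalized reads in Rroid-deficient libraries, against 818, 836 and 559.7 in wildtype libraries. Every Rroid-deficient library was above every wildtype library, wildtype library 3 was the lowest, and the log2 fold change was 1.18 ± 0.14 (SE, limma adjusted p = 1.13e-05). The Kdm2b peak closest to any of its starts held 5767 ± 770.3 normalized reads in Rroid-deficient cells and 5982 ± 791 in wildtype cells (SD, n = 3 each) and was not called. The calls at 36.9 and 39.5 kb held under every alternative, and the call at 0.2 kb was lost without wildtype library 3 (adjusted p = 0.0556).

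Kdm6b removes H3K27me3 and is induced by inflammatory signals. A peak 5.1 kb upstream of its start (chr11:69231276-69233351) held 1192, 1576 and 1329 normalized reads in Rroid-deficient libraries, against 1114, 1099.7 and 830.2 in wildtype libraries. The groups did not overlap, with wildtype library 3 lowest, and the log2 fold change was 0.43 ± 0.13 (SE, limma adjusted p = 0.0184). This call was lost without Rroid-deficient library 5 or 6 or wildtype library 3 (adjusted p at most 0.0984). The tallest Kdm6b peak, 3.4 kb downstream of the start, held 7868 ± 1296 normalized reads in Rroid-deficient cells and 8588 ± 1099 in wildtype cells (SD, n = 3 each) and was not called. Kdm5b, an H3K4 demethylase, had 2 peaks with log2 fold changes of -0.07 and 0.09, and neither was called.

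Of the 10 Polycomb peaks, 1 was higher and 2 were lower in Rroid-deficient cells, which is 30% called beside 25.8% of all peaks. The median log2 fold change was 0.06. Ezh1, one of the alternative H3K27 methyltransferases of PRC2, was higher at its promoter (chr11:101087122-101088136), with 461, 603 and 503 normalized reads in Rroid-deficient libraries, against 427, 418 and 317 in wildtype libraries. Wildtype library 3 stood below the other wildtype libraries, and the log2 fold change was 0.43 ± 0.15 (SE, limma adjusted p = 0.0364). Eed, the PRC2 subunit that binds H3K27me3, was lower at its 5′ UTR peak (chr7:97128338-97130121), with 5179.8, 5416 and 5252 normalized reads in Rroid-deficient libraries, against 5581, 6622 and 6757 in wildtype libraries. The Rroid-deficient libraries were close together and wildtype library 1 was the nearest to them, and the log2 fold change was -0.25 ± 0.08 (SE, limma adjusted p = 0.0301). The windows printed above are those of these promoters.

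Ezh2, the other PRC2 methyltransferase, held 4075, 4624 and 4305 normalized reads in Rroid-deficient libraries, against 4515, 5139 and 4169 in wildtype libraries at its promoter (chr6:47543939-47545745). The groups overlapped, and the log2 fold change was -0.08 ± 0.09 (SE, limma adjusted p = 0.516). Suz12, which holds PRC2 together, had 1 peak, with a log2 fold change of 0.14 that was not called. Bmi1, a ring finger protein of Polycomb repressive complex 1, was lower at an intronic peak 4.1 kb downstream of its start (chr2:18602362-18603094), with 842, 892 and 887 normalized reads in Rroid-deficient libraries, against 1030.2, 1098 and 1247 in wildtype libraries. That log2 fold change was -0.36 ± 0.10 (SE, limma adjusted p = 0.0166), and the groups did not overlap. None of the 3 Polycomb calls held throughout, and each was lost without Rroid-deficient library 6 and also without wildtype library 3. The Ezh1 call was also lost without Rroid-deficient library 5 (limma adjusted p at most 0.164). Those of Eed and Bmi1 were lost without library 4 and without libraries 4 and 6 together. The Eed call was lost without wildtype library 2 and under loess normalization too.

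Enzymes of DNA methylation held 29 peaks, 1 higher and 4 lower in Rroid-deficient cells, or 17.2% called beside 25.8% of all peaks. Dnmt1 copies methylation to the new strand after replication, and both of its peaks were lower. The promoter peak (chr9:20756519-20757892) held 2654, 3131 and 2902 normalized reads in Rroid-deficient libraries, against 3195, 3872 and 3693 in wildtype libraries, with a log2 fold change of -0.31 ± 0.09 (SE, limma adjusted p = 0.0205). The other peak, intergenic and 1.6 kb upstream of a different annotated start, had a log2 fold change of -0.39, and the 3 values of each genotype were separate at both. Both Dnmt1 calls were lost without Rroid-deficient library 4 or 6 or wildtype library 2, and the promoter call also without wildtype library 3. With libraries 4 and 6 left out together, both were lost too.

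Dnmt3a places new methylation, and 1 of its 10 peaks was called. This intronic peak 6.1 kb downstream of a start (chr12:3812899-3813566) held 88.8, 66.6 and 76.2 normalized reads in Rroid-deficient libraries, against 166, 159 and 145 in wildtype libraries. Every Rroid-deficient value was below every wildtype value, and the log2 fold change was -1.02 ± 0.20 (SE, limma adjusted p = 0.00119). The Dnmt3a peaks within 1 kb of its annotated starts had log2 fold changes of 0.22 and 0.10 and were not called. Dnmt3b, the other de novo enzyme, and Tet1 had no called peak among 2 and 3.

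The Tet enzymes oxidize methylated cytosine. Tet2 had 1 of 9 peaks called, 39.1 kb upstream of its start (chr3:133245711-133247170), with 220.1, 226 and 247 normalized reads in Rroid-deficient libraries, against 427, 403 and 483 in wildtype libraries. The Rroid-deficient values stood far below the wildtype values, and the log2 fold change was -0.92 ± 0.14 (SE, limma adjusted p = 9.75e-05). Tet3 had 1 of 3 called, in the other direction, in an intron 19.7 kb downstream of a start (chr6:83371539-83372394), with 159, 224 and 204 normalized reads in Rroid-deficient libraries, against 81.9, 84.0 and 84.0 in wildtype libraries. The wildtype values were almost equal and the lowest Rroid-deficient value was well above them, and the log2 fold change was 1.21 ± 0.19 (SE, limma adjusted p = 0.000185). The calls at Dnmt3a, Tet2 and Tet3 held under every alternative that tested them, and the promoter peaks of Tet2 and Tet3, at log2 fold changes of -0.06 and 0.08, were not called.

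BAF remodeller genes held 29 peaks, 2 higher and 4 lower in Rroid-deficient cells, or 20.7% called beside 25.8% of all peaks. The lower ones belonged to Arid1a and Arid1b, alternative DNA-binding subunits of the complex. The Arid1a peak, intergenic and 46.9 kb upstream of the start (chr4:133355814-133357122), held 107, 82.8 and 82.2 normalized reads in Rroid-deficient libraries, against 223, 381 and 321 in wildtype libraries. Wildtype library 1 was the lowest of its group and still more than any Rroid-deficient library, and the log2 fold change of -1.73 ± 0.21 (SE, limma adjusted p = 1.01e-05) was the lowest among the 170 peaks. The tallest Arid1a peak, 60.3 kb upstream, held 6272 ± 903 normalized reads in Rroid-deficient cells and 7512 ± 1139 in wildtype cells (SD, n = 3 each) and was not called.

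At Arid1b, 3 of 12 peaks were lower, all in introns, 10.5, 22.4 and 68.7 kb downstream of the start, with log2 fold changes of -1.21, -0.63 and -0.70. The peak at 10.5 kb (chr17:5005201-5005904) held 98.1, 114 and 117 normalized reads in Rroid-deficient libraries, against 267, 269 and 231 in wildtype libraries. The genotypes were clearly separate, and the log2 fold change was -1.21 ± 0.17 (SE, limma adjusted p = 5.31e-05). The calls at 10.5 and 22.4 kb held under every alternative that tested them. That at 68.7 kb was lost without Rroid-deficient library 4 or wildtype library 1, and also without libraries 4 and 6 together. The Arid1b promoter peak had a log2 fold change of 0.04.

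Smarca2 encodes BRM, one of the alternative ATPases of BAF, and 2 of its 7 peaks were higher. The peak 0.3 kb upstream of an internal start (chr19:26822055-26823225) held 574, 692 and 599.7 normalized reads in Rroid-deficient libraries, against 566, 411 and 363 in wildtype libraries. Rroid-deficient library 4 was barely above wildtype library 1, and the log2 fold change was 0.50 ± 0.15 (SE, limma adjusted p = 0.0213). The Smarca2 call at this peak was lost without Rroid-deficient library 5 or 6 or wildtype library 2 or 3 (adjusted p at most 0.104 over the alternatives). The tall peak 1.1 kb downstream of the first start rose by 0.21 on the log2 scale. That call was lost with DESeq2 size factors and without any 1 of the Rroid-deficient libraries or wildtype library 2 or 3. It was also lost without libraries 4 and 6 together. Smarca4, the ATPase BRG1, held 3447, 4337 and 3783 normalized reads in Rroid-deficient libraries, against 4163, 4296 and 4146 in wildtype libraries at its promoter (chr9:21420050-21421537). The groups overlapped, and the log2 fold change was -0.13 ± 0.09 (SE, limma adjusted p = 0.294). Smarcc1, a core subunit, had 1 peak, at -0.09, which was not called.

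The AT-rich DNA binding proteins Arid5b and Satb1 held 8 peaks each, and 31.25% of these were called beside 25.8% of all peaks. Arid5b, known from acute lymphoblastic leukaemia, had 1 peak higher and 3 lower. The intronic peak 76.6 kb downstream of the start (chr10:67664626-67665169) held 147, 119 and 152 normalized reads in Rroid-deficient libraries, against 32.1, 39.5 and 36.1 in wildtype libraries. All 3 Rroid-deficient values were more than any wildtype value, and the log2 fold change of 1.93 ± 0.24 (SE, limma adjusted p = 1.50e-05) was the highest among the 170 peaks. The lower peaks lay 4.2 kb upstream and 38.6 and 56.4 kb downstream of the start, with log2 fold changes of -0.43, -0.29 and -0.47. The last of them (chr10:67684339-67685909) held 269, 276 and 285 normalized reads in Rroid-deficient libraries, against 362, 375 and 416 in wildtype libraries, without overlap and with an adjusted p of 0.0150. The rise held under every alternative that tested it, and the falls did not. The call at 38.6 kb was lost without Rroid-deficient library 4 or 6 or wildtype library 1 or 2, and that at 56.4 kb without wildtype library 3. With libraries 4 and 6 left out together, none of the falls kept its call, that at 4.2 kb included. The Arid5b promoter peak (chr10:67739018-67743181) held 2443, 2710.2 and 2659 normalized reads in Rroid-deficient libraries, against 2835, 2798 and 2876 in wildtype libraries. Its groups did not overlap, but the log2 fold change of -0.12 ± 0.08 (SE, limma adjusted p = 0.282) missed the threshold.

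Satb1, which folds chromatin in thymocytes and is high in immature T cells, had 1 called peak, 74 bp upstream of an annotated internal start (chr17:51965686-51966289). It held 149.9, 175 and 161 normalized reads in Rroid-deficient libraries, against 73.9, 105 and 89.9 in wildtype libraries. The groups were apart, the log2 fold change was 0.86 ± 0.20 (SE, limma adjusted p = 0.00405), and the call held under every alternative that tested it. The taller Satb1 peak at another start, 0.2 kb downstream of it in the 5′ UTR, had a log2 fold change of 0.20 and was not called.

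The CHD remodellers held 19 peaks, 3 higher and 1 lower in Rroid-deficient cells, or 21.1% called beside 25.8% of all peaks. The 3 higher ones were intronic peaks of Chd7, an ATPase mutated in CHARGE syndrome in humans, at 65.4, 84.7 and 88.1 kb from the start, with log2 fold changes of 0.97, 0.51 and 0.61. The first (chr4:8682273-8683633) held 208, 179 and 192 normalized reads in Rroid-deficient libraries, against 107, 94.9 and 91.8 in wildtype libraries. Its groups were far apart, with a log2 fold change of 0.97 ± 0.18 (SE, limma adjusted p = 0.000674) that held under every alternative that tested it. The calls at 84.7 and 88.1 kb were each lost without Rroid-deficient library 5. The first was also lost without library 6, without wildtype library 2 and without libraries 4 and 6 together. The second was also lost without wildtype library 1 or 3 (limma adjusted p at most 0.142).

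Chd4, the ATPase of the NuRD complex, was lower at a peak 11.5 kb upstream of its start (chr6:125034343-125034987), with 217, 243 and 269.6 normalized reads in Rroid-deficient libraries, against 304, 378 and 302 in wildtype libraries. The highest Rroid-deficient value lay just below the lowest wildtype value, and the log2 fold change was -0.43 ± 0.15 (SE, limma adjusted p = 0.0460), the largest adjusted p among the 41 called peaks. The Chd4 call at this peak was lost without Rroid-deficient library 4, 5 or 6 or wildtype library 2 or 3. Scaling to total reads removed it too, as did leaving out libraries 4 and 6 together. Chd1, which binds H3K4me3, had 4 peaks and none called.

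Acetyltransferase genes held 17 peaks, of which 0 were higher and 3 lower in Rroid-deficient cells by limma, edgeR and DESeq2. That is 17.6% called, beside 25.8% of all peaks (13.8% higher and 12.1% lower). By limma, 1 was higher at an unadjusted p under 0.05. Kat2b, also known as PCAF, had 2 of 8 lower, both intronic and measured from an internal start. The one 3.4 kb downstream of that start (chr17:53726234-53727402) held 587, 621 and 672 normalized reads in Rroid-deficient libraries, against 927, 891 and 1006 in wildtype libraries. The groups were apart, and the log2 fold change was -0.59 ± 0.11 (SE, limma adjusted p = 0.000670), which held under every alternative. The other, at 39.9 kb (chr17:53763001-53763747), was shallow, with 49.1, 59.0 and 84.6 normalized reads in Rroid-deficient libraries, against 111, 104 and 107 in wildtype libraries. Its log2 fold change was -0.77 ± 0.24 (SE, limma adjusted p = 0.0252). The Kat2b call at this peak was lost without Rroid-deficient library 4 or wildtype library 1, 2 or 3, and also without libraries 4 and 6 together.

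Kat6a, also known as MOZ, was lower at its promoter (chr8:23969150-23971310), with 2965, 3449.8 and 3215 normalized reads in Rroid-deficient libraries, against 3539, 4125 and 3868 in wildtype libraries. The log2 fold change was -0.26 ± 0.09 (SE, limma adjusted p = 0.0349), with no overlap of the groups. The Kat6a call at this peak was lost without Rroid-deficient library 4 or 6 or wildtype library 2 or 3, and also without libraries 4 and 6 together. Ep300 and Crebbp are coactivators that acetylate H3K27 at enhancers, and none of their 3 and 2 peaks was called. The Ep300 promoter peak (chr15:81415206-81417119) held 4065, 5302 and 4462 normalized reads in Rroid-deficient libraries, against 5187, 6244 and 4269 in wildtype libraries, and the groups overlapped widely (log2 fold change -0.17 ± 0.12 SE, limma adjusted p = 0.297).

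CTCF, which marks loop anchors, and the cohesin subunits Smc3 and Rad21 had 8 peaks. By limma, 0 were called in either direction, beside 25.8% of all peaks. At an unadjusted p under 0.05 there were also 0, and edgeR and DESeq2 on the recovered reads called 0. The Ctcf promoter peak (chr8:108159793-108161672) held 4645, 5735 and 5191 normalized reads in Rroid-deficient libraries, against 4869, 5174 and 3539.7 in wildtype libraries. Wildtype library 3 was the lowest and the groups overlapped, and the log2 fold change was 0.21 ± 0.12 (SE, limma adjusted p = 0.198); under loess normalization the peak was called (adjusted p = 0.0337). Setd2, which trimethylates H3K36, had 2 peaks with log2 fold changes of 0.03 and 0.34, and neither was called.

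**Figure D3:**
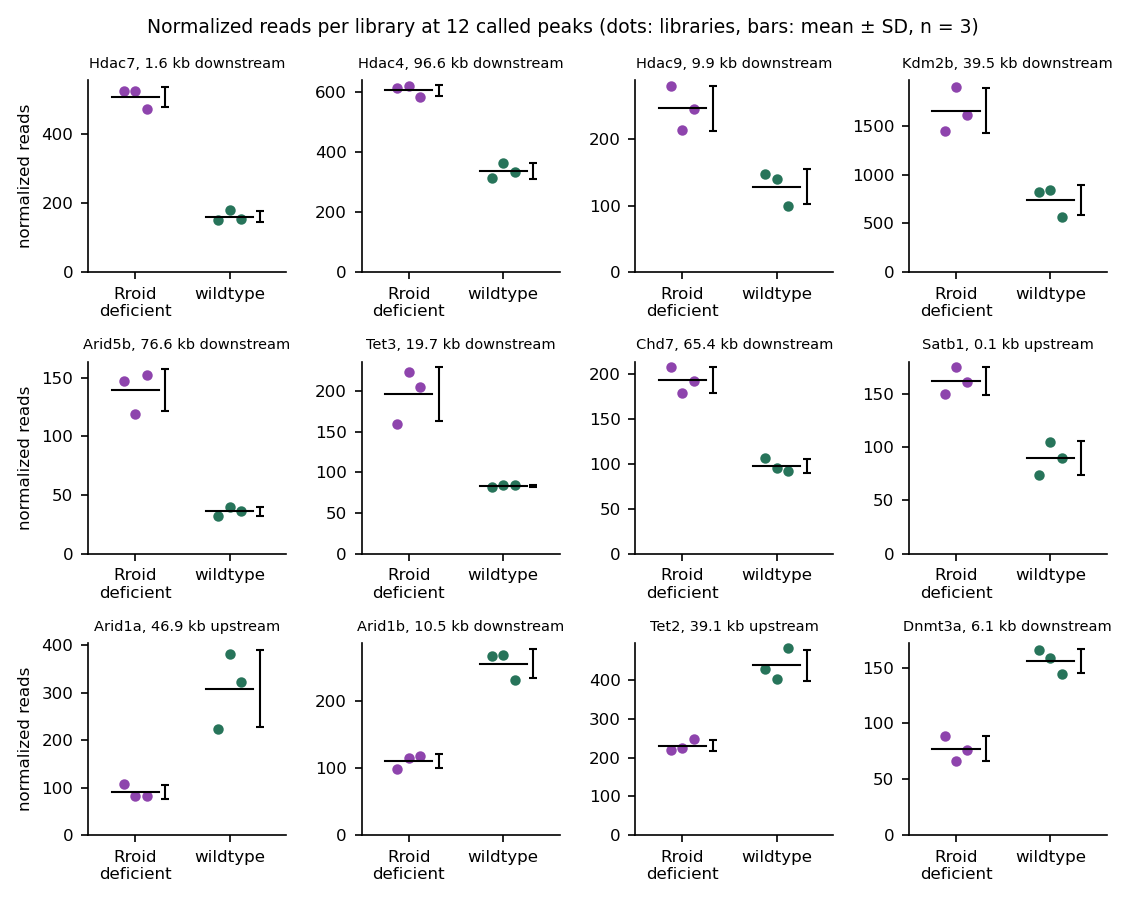
Normalized reads in each library (y axis, from 0) at 12 called peaks, with Rroid-deficient libraries in purple to the left of wildtype libraries in green and mean ± SD beside them (n = 3 each). The first 8 panels are higher and the last 4 lower in Rroid-deficient cells, and in none of the 12 do the groups overlap.

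Promoters were compared at the peak nearest to a start site within 1 kb, which 34 of the 41 genes had. In Rroid-deficient cells 4 of these were higher (Ncor1, Smarca2, Ezh1 and Satb1), 3 lower (Eed, Dnmt1 and Kat6a) and 27 not called, with log2 fold changes from -0.31 to 0.86. The called peaks of Smarca2 and Satb1 lay at internal starts. The taller Smarca2 peak 1.1 kb downstream of the first start, also called higher, fell outside the limit. It held 5848 normalized reads in Rroid-deficient cells and 5045 in wildtype cells. At Satb1 a taller peak 0.2 kb from another start was not called, with 3063 and 2674. Over all 37 peaks within 1 kb, 5 were higher and 3 lower, which is 21.6% called beside 19.2% of all peaks within 1 kb of a start site (10.4% higher and 8.73% lower). Per kb of peak, the tallest promoters were those of Smc3, with 3183 ± 172 normalized reads in Rroid-deficient cells and 3469 ± 323 in wildtype cells, and Eed, with 2960 ± 68.0 in Rroid-deficient cells and 3541 ± 360 in wildtype cells (SD, n = 3 each). The lowest were the Dnmt3b promoter, with 333 ± 12.2 in Rroid-deficient cells and 299 ± 31.4 in wildtype cells, and the internal Satb1 start, with 268 ± 21.0 in Rroid-deficient cells and 148 ± 25.7 in wildtype cells. In wildtype cells Eed and Smc3, and likewise Ezh1 and the internal Smarca2 start, lay within 1 SD of each other. Satb1 was apart from Dnmt3b.

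**Figure D4:**
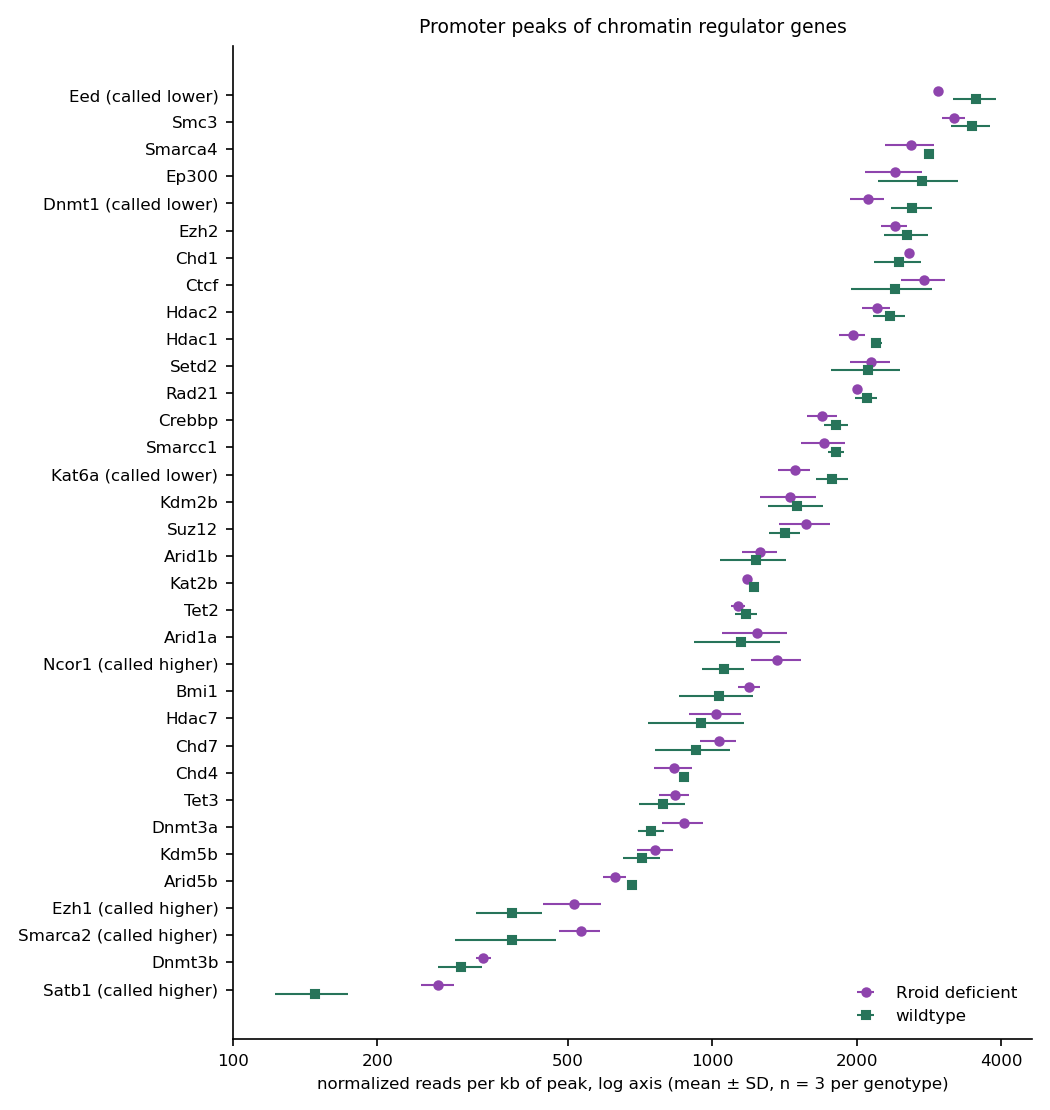
Normalized reads per kb of peak (x axis, log scale, mean ± SD, n = 3 per genotype) at the promoter peak of 34 chromatin regulators, ordered by the wildtype level, with Rroid deficient (circles) above wildtype (squares) in each row. Wildtype levels run from 148 at the internal Satb1 start to 3541 at Eed, and 4 promoters were called higher and 3 lower. The Smarca2 peak shown is also at an internal start.

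Away from promoters, 18 of 133 peaks at 1 to 100 kb were higher and 15 lower, which is 24.8% called beside 27.3% of all peaks at that distance (14.7% higher and 12.6% lower). In finer bins the share called was 32.3% of 31 peaks at 1 to 10 kb, beside 26.8%, then 17.3% of 75 at 10 to 50 kb, beside 27.2%, and 37.0% of 27 at 50 to 100 kb, beside 28.6%. At 50 to 100 kb, 8 were higher and 2 lower, and 7 of the 8 belonged to Hdac4 and Chd7. By annotation class, introns held 107 of the 170 peaks, with 18 higher and 11 lower, which is 27.1% called beside 27.0% of all intronic peaks (14.3% higher and 12.7% lower). Intergenic DNA held 38, with 2 higher and 5 lower, which is 18.4% called beside 27.0% of all intergenic peaks (14.4% higher and 12.6% lower). By height, 2 of the 42 peaks in the lowest tercile of the series were called, which is 4.76% beside 16.7%, 34.6% of 52 in the middle tercile, beside 31.5%, and 27.6% of 76 in the highest tercile, beside 27.1%. The peaks at chromatin regulators were taller than the series as a whole, with a median mean value of 326 normalized reads beside 195. Just inside the 100 kb limit, Arid1b peaks at 96.6 and 99.8 kb had log2 fold changes of 0.34 and -0.38, and just outside, peaks of Hdac4 at 105.9 kb and Arid5b at 106.6 kb had 0.45 and -0.09.

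**Figure D5:**
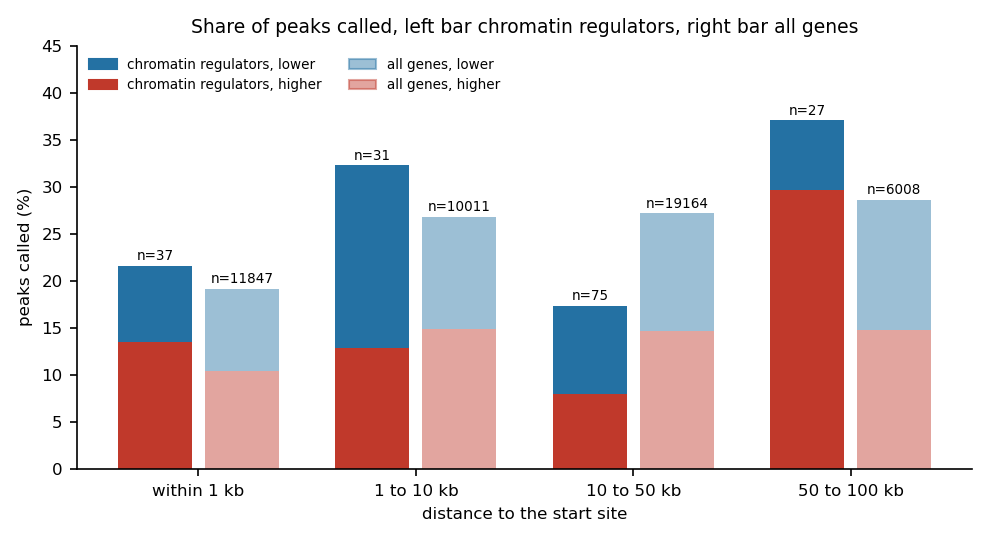
Share of peaks called (y axis, %) by distance to the start site (x axis), split into higher (red) and lower (blue), for chromatin regulators (left bar) and all genes (right bar), with the number of peaks above each bar. The chromatin regulators lie below all genes at 10 to 50 kb (17.3% and 27.2%) and above them at 50 to 100 kb (37.0% and 28.6%).

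When the peaks of each gene were summed, so that genes with many peaks did not count more than others, 2 of the 38 regulators were higher and 3 lower, or 13.2% called beside 20.3% of 16285 genes (10.8% higher and 9.51% lower). Hdac9 was higher, with 382, 241 and 307 normalized reads in Rroid-deficient libraries, against 186, 202 and 146 in wildtype libraries (log2 fold change 0.79 ± 0.20 SE, limma adjusted p = 0.0119). Ncor1 was also higher, with a log2 fold change of 0.36, and Dnmt1, Kat6a and Arid5b were lower, with -0.32, -0.25 and -0.21. In each the groups did not overlap, but all 5 calls were lost without wildtype library 3, with adjusted p from 0.0589 at Hdac9 to 0.114 at Kat6a. The 3 calls of lower genes were also lost without Rroid-deficient library 4 or 6 or wildtype library 2, that of Hdac9 without Rroid-deficient library 4 and that of Ncor1 without library 5. With all libraries kept, the Arid5b and Kat6a calls were also lost under scaling to total reads and under loess normalization. That of Kat6a was lost among genes at or above the median height too. Over all 170 peaks the summed value was 191306 ± 12886 normalized reads in Rroid-deficient cells and 194316 ± 12991 in wildtype cells (SD, n = 3 each), and the groups overlapped. The peaks took 0.493 to 0.524% of the reads in peaks of Rroid-deficient libraries and 0.474 to 0.519% of those of wildtype libraries.

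Other genes of the same complexes, 150 symbols listed with 136 having a peak, held 505 peaks, of which 54 were higher and 44 lower in Rroid-deficient cells, or 19.4% called beside 25.8%. The other Polycomb genes held 95 peaks with 18 higher and 4 lower, among them Jarid2 with 4 higher and Aebp2 with 3. That is 23.2% called, with 18.9% higher and 4.21% lower, beside 13.8% and 12.1% of all peaks. By edgeR 17 of these peaks were higher and by DESeq2 15, with 4 lower by each. By limma at an unadjusted p under 0.05, 23 were higher and 8 lower. Among the 10 peaks of the PRC2 genes and Bmi1, 1 was higher and 2 were lower. The histone methyltransferases held 55 peaks with 10 higher and 0 lower by limma, edgeR and DESeq2, or 18.2% called beside 25.8%. By limma, 5 were lower at an unadjusted p under 0.05. The called peaks with the smallest adjusted p were, among higher ones, those near Ss18, a BAF subunit, Kdm7a, a histone demethylase, and Phc2, a subunit of Polycomb repressive complex 1, with log2 fold changes of 2.14, 1.93 and 1.06. Among lower ones they lay near Smarcd3, a BAF subunit, Chd5, a remodeller, and Kdm4b, a demethylase, with -1.23, -0.69 and -1.36. The Ss18 peak held 668, 690.2 and 590.0 normalized reads in Rroid-deficient libraries, against 162, 136 and 142 in wildtype libraries. At Kdm7a the values were 289, 313 and 277 normalized reads in Rroid-deficient libraries, against 72.1, 73.9 and 82.0 in wildtype libraries, and at Phc2 they were 1391, 1495 and 1337 normalized reads in Rroid-deficient libraries, against 744, 704 and 583 in wildtype libraries. All 3 rose in each Rroid-deficient library above each wildtype library. The Smarcd3 peak held 139, 128 and 137 normalized reads in Rroid-deficient libraries, against 323, 341 and 289 in wildtype libraries, the Chd5 peak 1735, 1987 and 1839 normalized reads in Rroid-deficient libraries, against 2766, 3046 and 3180.3 in wildtype libraries and the Kdm4b peak 66.3, 44.7 and 47.2 normalized reads in Rroid-deficient libraries, against 150.5, 118 and 139 in wildtype libraries. In all 6 of these peaks the genotypes did not overlap.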

How the data were processed

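Accessibility was measured by ATAC-seq in 6 libraries, 3 per genotype, with 50000 sorted cells of each genotype transposed per the labels. Per the submitters' processing notes, the build was mm9 and the tools were HOMER, DiffBind, MACS2 2.1.0, BWA, R 3.1.1, bcl2fastq 2.16.0 and Trimmomatic 0.32. Any shift of reads to the cut site and any removal of duplicates are not given in the sources used here, and both would change peak values. The authors deposited 1 normalized signal value per consensus peak and library, with a nearest gene and its distance per the file headers. Each library's signal could be turned back into reads with 1 factor, and 100% of values then came out whole within a tolerance of 0.01. The median peak held 151 to 224 reads, so counting error alone is 6.7 to 8.1% there, and intervals of this kind cover counting error only.

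Because the deposited unit was a signal, limma 3.58.1 (R 4.3.3) with an intensity trend was fitted to log2(value + 1), without covariates, over all 51775 peaks. The filter (10 or more in 3 libraries) removed 0 peaks. Fold changes on this scale understate those of low peaks. Columns were mapped by genotype alone, as numbers 4, 5 and 6 of the Rroid-deficient ones are in no sample title. Summed values per gene were fitted the same way. Alternatives were DESeq2 size factors, total reads, loess, pseudocounts of 0.5 and 5, no filter, peaks at or above the median height, edgeR 4.0.16 and DESeq2 1.42.0 on the recovered reads, each library left out, and limits of 50 and 1 kb. Leaving out libraries 4 and 6 together was added after seeing the data. On the recovered reads edgeR called 25.7% of all peaks and DESeq2 25.4%.

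The genes, lists and comparisons were chosen with earlier results of these data known. Per-library values are given for up to 3 called peaks per complex with the smallest p, at most 1 per gene. They are also given for the 8 largest and 8 smallest fold changes among called peaks without overlap, at most 1 per gene, for 8 chosen promoters (Ezh2, Dnmt1, Smarca4, Hdac1, Ep300, Ctcf, Satb1 and Arid5b), and for 3 peaks of other regulators in each direction. Promoter sequences are from RefSeq, build GRCm38.p6, and no coordinate was converted.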

Additional observations from a re-analysis of the deposited data

How the results depend on the processing

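Among the counts and medians, 254 recomputed values stayed near the one reported and 70 moved. Near was taken widely, so that 16 higher peaks without wildtype library 3 counted as near 23. The 254 also include the setting without the filter, which could not move because the filter removed 0 peaks. No called regulator peak changed direction under any alternative that tested it. Of the 41 called peaks, 15 calls were lost without wildtype library 3. In that setting 16.5% of regulator peaks and 19.2% of all peaks were called, against 24.1% and 25.8% with all libraries. Leaving out Rroid-deficient libraries 4 and 6, the shallowest, was an alternative chosen after seeing the data. It left library 5 alone in its group. Scaling or tool removed 3 (Smarca2 at 1.1 kb, Chd4 and Eed). Fewer libraries or fewer peaks were tested in several of the settings below; beyond that, the cause was not tested. Depth limits the low peaks most, with counting error of 6.7 to 8.1% at the median peak. No paired analysis was possible because the columns carry only the genotype and the numbers of the Rroid-deficient ones match no sample title. With libraries 4 and 6 left out, the median log2 fold change was 0.021 over regulator peaks and -0.023 over all peaks. With all libraries, 23 regulator peaks were higher and 18 lower. Within 50 kb 15 were higher and 16 lower, and within 1 kb 5 were higher and 3 lower. The median log2 fold change of the regulator peaks, -0.0037 as reported, was 0.055 with scaling to total reads, which moved the median of all peaks to 0.051. It was -0.054 among peaks at or above the median height, where that of all peaks was -0.066, -0.053 within 50 kb and 0.041 within 1 kb. Several complex medians lie near 0 and took the other sign in some settings. With total reads they were -0.010 at DNA methylation genes, 0.14 at CHD remodellers and 0.199 at class I deacetylases, and cyclic loess gave 0.033 at CHD remodellers. Among peaks at or above the median height they were 0.092 at demethylases, -0.13 at DNA methylation genes, -0.18 at AT-rich DNA binding genes, -0.019 at CHD remodellers, -0.090 at class I deacetylases and 0.15 at class IIa deacetylases. Without libraries 4 and 6 they were 0.17 at Polycomb genes, 0.12 at demethylases, -0.17 at DNA methylation genes, -0.011 at BAF genes and 0.020 at CHD remodellers. Within 50 kb they were -0.15 at DNA methylation genes, 0.0099 at CHD remodellers and 0.21 at class IIa deacetylases. Within 1 kb they were 0.092 at demethylases, 0.091 at DNA methylation genes, 0.041 at BAF genes, 0.201 at AT-rich DNA binding genes, -0.090 at class I deacetylases and 0.12 at class IIa deacetylases. On summed values, limma called 2 regulators higher and 3 lower; the higher ones numbered 4 with DESeq2 size factors, 6 with total reads, 6 with loess, 1 among peaks at or above the median height, 4 with edgeR and 5 with DESeq2. The lower ones numbered 1 with total reads, 1 with loess and 0 without libraries 4 and 6 (limma, 0 at an unadjusted p under 0.05). Without Rroid-deficient library 4 or 6 or wildtype library 2 or 3, limma called 0 lower, with 4, 4, 3 and 5 at an unadjusted p under 0.05, and without wildtype library 3 it called 0 higher, with 3 unadjusted. Among other regulators, with 54 peaks higher and 44 lower, 25 were higher among peaks at or above the median height, 30 higher and 16 lower without libraries 4 and 6, and 4 higher and 11 lower within 1 kb. With each library left out in turn, regulator peaks called higher ranged from 16 to 23 and lower from 9 to 23, and their median from -0.033 to 0.013. By complex, the medians ranged from -0.014 to 0.105 for Polycomb, -0.11 to 0.051 for demethylases, -0.13 to -0.043 for DNA methylation, -0.11 to -0.014 for BAF and -0.040 to 0.063 for AT-rich DNA binding. They ranged from 0.014 to 0.077 for CHD remodellers, 0.061 to 0.17 for class I deacetylases, 0.29 to 0.46 for class IIa deacetylases, -0.18 to -0.078 for acetyltransferases, -0.035 to 0.18 for CTCF and cohesin and 0.010 to 0.32 for Setd2. Genes called on summed values ranged from 0 to 4 higher and 0 to 4 lower, and peaks of other regulators from 36 to 53 higher and 25 to 49 lower.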

Other observations

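Among other regulators that sit in the same complexes, several genes had called peaks only or mostly in one direction, chosen here after their values were seen. Of the accessory Polycomb genes, Jarid2, which helps bring PRC2 to DNA, had 4 of 10 peaks higher in Rroid-deficient cells, Cbx2, which carries a chromodomain, had 2 of 2 higher, and Aebp2 had 3 of 12 higher. Cbx7, another chromodomain protein, had 2 of 10 lower. The Cbx2 peak 349 bp from a start held 471, 810 and 591 normalized reads in Rroid-deficient libraries, against 492, 470 and 276 in wildtype libraries. Its groups overlapped (limma adjusted p = 0.0361), while those of the other Cbx2 peak did not (limma adjusted p = 0.0354). Tbl1x and Tbl1xr1, partners of Ncor1 in its corepressor complex, had 5 of 10 and 4 of 15 peaks lower, and Tbl1x had 1 higher. Kdm6a, a demethylase of H3K27me3 like Kdm6b, had 3 of 8 lower, and Kdm7a had 4 of 7 higher. Kdm6a and Tbl1x both lie on chromosome X, and any part of the chromosome in their falls was not tested. Bcl11b, a T cell transcription factor listed with BAF, had 3 of 14 lower. Over all 505 peaks of other regulators the median log2 fold change was -0.05. Of these peaks 10.7% were higher and 8.71% lower, beside 13.8% and 12.1% of all peaks.

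The 48 peaks farther than 100 kb from the start of a chromatin regulator held 7 higher and 7 lower calls, or 29.2%. Their median log2 fold change was -0.02. Of all peaks at any distance 25.8% were called, and of all peaks at 50 to 100 kb 28.6%. The share of all peaks beyond 100 kb, which would be the like comparison, was not computed. Chd7 had 16 of them, Arid1b 12 and Hdac9 10.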
